A study of Mus musculus with 12 samples.

Results

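The genes of cholesterol synthesis, movement inside the cell, esterification and export were followed in mice aged 4 weeks, in the liver and in the quadriceps, a thigh muscle. The 31 members were listed by name for their role in the pathway, not by their values. A probe set annotated with that gene symbol alone was found for 28 of them, out of 18193 genes with such a probe set on the arrays, and the brightest one, by its mean over the 6 samples of a tissue, stands for the gene. Acat2, Soat1 and Soat2 had none in the annotation used and were not analysed here, so that no esterification enzyme was measured.

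The 12 samples came from C57BL/6 offspring whose mothers were fed a normal protein diet (20% casein) from day 1 of pregnancy until birth. In the NP+tau group the drinking water of the mothers held 1% taurine, and in the NP group it was plain water. Each diet group had 3 liver and 3 muscle samples. According to the study's methods every pup had a dam of its own, and each animal gave both tissues. The labels do not state that a replicate number marks the same animal in both tissues. The question was whether taurine given to the mother was followed by a difference in the expression of cholesterol genes in the offspring at 4 weeks.

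Animal cells build cholesterol from acetyl-CoA, first through mevalonate to farnesyl diphosphate and then through squalene and lanosterol. When sterols in the endoplasmic reticulum run low, Scap escorts the SREBP transcription factors to the Golgi apparatus, where they are cut and released to switch on the genes of this pathway, while Insig1 and Insig2 hold Scap back when sterols are plentiful. A surplus of cholesterol, sensed as oxysterols by the nuclear receptor LXR, goes with higher expression of exporters such as Abca1, and the liver can also pass cholesterol into bile.

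Promoter sequences are shown for 5 members whose values the results turn on. Hmgcs1 and Idi1 are early enzymes with wide ranges in liver, Tm7sf2 and Lbr are enzymes for the same step that ran in opposite directions, and Abcg8 shares its start region with Abcg5. The sequences are from RefSeq on GRCm38.p6, each with 250 bases before and 50 bases from the start of the gene, 5′ to 3′ along the gene. Capitals mark CCAAT boxes (CCAAT, or ATTGG where it lies on the other strand) and the sterol regulatory element TCACNCCAC, both searched on either strand. The windows are chr13:119690101-119690400 (+) for Hmgcs1, chr13:8885356-8885655 (+) for Idi1, chr19:6067801-6068100 (-) for Tm7sf2, chr1:181842352-181842651 (-) for Lbr and chr17:84682871-84683170 (+) for Abcg8.
Hmgcs1: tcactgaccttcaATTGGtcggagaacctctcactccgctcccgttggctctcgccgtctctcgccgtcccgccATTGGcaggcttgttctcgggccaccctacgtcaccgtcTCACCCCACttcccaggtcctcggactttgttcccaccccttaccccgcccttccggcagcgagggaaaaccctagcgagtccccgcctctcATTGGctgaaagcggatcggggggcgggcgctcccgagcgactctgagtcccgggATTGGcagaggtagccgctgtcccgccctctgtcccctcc
Idi1: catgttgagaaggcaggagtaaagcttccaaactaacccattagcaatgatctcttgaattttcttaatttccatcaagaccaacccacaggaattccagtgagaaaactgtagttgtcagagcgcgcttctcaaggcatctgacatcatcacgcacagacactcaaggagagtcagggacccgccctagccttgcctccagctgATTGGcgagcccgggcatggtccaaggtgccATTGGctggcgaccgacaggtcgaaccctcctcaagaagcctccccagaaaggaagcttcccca
Tm7sf2: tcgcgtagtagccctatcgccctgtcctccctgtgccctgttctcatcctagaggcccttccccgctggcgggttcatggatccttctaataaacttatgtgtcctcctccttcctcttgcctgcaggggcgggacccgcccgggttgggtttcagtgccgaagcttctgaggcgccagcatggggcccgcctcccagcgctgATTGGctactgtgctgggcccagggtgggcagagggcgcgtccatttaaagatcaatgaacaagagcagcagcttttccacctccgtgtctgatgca
Lbr: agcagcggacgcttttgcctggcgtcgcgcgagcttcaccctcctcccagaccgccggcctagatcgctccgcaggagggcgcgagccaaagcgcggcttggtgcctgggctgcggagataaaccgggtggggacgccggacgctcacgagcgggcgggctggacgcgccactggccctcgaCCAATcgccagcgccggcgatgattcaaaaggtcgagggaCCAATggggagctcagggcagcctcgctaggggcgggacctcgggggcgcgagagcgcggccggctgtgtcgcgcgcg
Abcg8: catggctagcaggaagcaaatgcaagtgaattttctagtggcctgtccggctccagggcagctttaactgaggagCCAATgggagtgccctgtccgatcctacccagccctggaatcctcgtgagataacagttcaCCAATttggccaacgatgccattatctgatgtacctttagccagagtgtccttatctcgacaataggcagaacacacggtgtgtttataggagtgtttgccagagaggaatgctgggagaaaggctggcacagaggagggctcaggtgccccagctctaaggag
TCACNCCAC was present in 1 of 34 promoter windows of 25 members, that of Hmgcs1, and in 1.24% of all 32851 windows of the same length. CCAAT was present in 23 of the 34 windows and in 14 of 18 windows of synthesis enzymes, against 37.4% of all windows. The Hmgcs1 window held 4 CCAAT boxes, the Idi1 and Lbr windows 2 each and the Tm7sf2 window 1. Abcg5 and Abcg8 lie head to head on chromosome 17, and their windows share 209 bases (84682962 to 84683170). These matches describe the letters in the windows only.

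Before the results, the arrays themselves are described. All expression levels are log2 values, quantile normalised within a tissue, so that levels were not compared between tissues, and a difference of 1 is a doubling in signal. The liver array of NP+tau replicate 1 was unlike the rest, with a median absolute deviation of its genes from their medians of 0.452, against 0.0769 to 0.184 for the other livers and 0.0749 to 0.202 for the muscles. The labelled tissues had their markers, with a mean of 14.02 to 14.33 for 6 hepatocyte genes in the livers and of 13.93 to 14.36 for 7 muscle genes in the muscles. Xist was high and the Y-linked Eif2s3y low in all NP samples and in NP+tau replicate 1 of both tissues, and the reverse was seen in NP+tau replicates 2 and 3. By these genes the NP groups held 1 sex only, although the methods describe mixed groups, and diet and sex cannot be told apart other than through NP+tau replicate 1.

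No member differed between NP+tau and NP after correction for all probe sets in either tissue. limma called 0 of 28 members in liver and 0 of 27 in muscle at an adjusted p under 0.05, and it called 0.0% of the 29274 probe sets tested in liver and 0.0% of those in muscle. At an unadjusted p under 0.05 there were 2 members in liver, Npc1 and Npc2, both lower in NP+tau, and 0 in muscle, where the background was 4.69% of probe sets in liver and 6.12% in muscle. The difference between the tissues in the effect of taurine was called for 0 of 27 members and 0.0% of 25622 probe sets, and the smallest unadjusted p of a member was 0.0943, that of Lbr. What stood out among the members was the spread between animals of one diet group. In bulk tissue such as this, fewer cells of a type and less RNA per cell cannot be told apart.

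**Figure D1:**
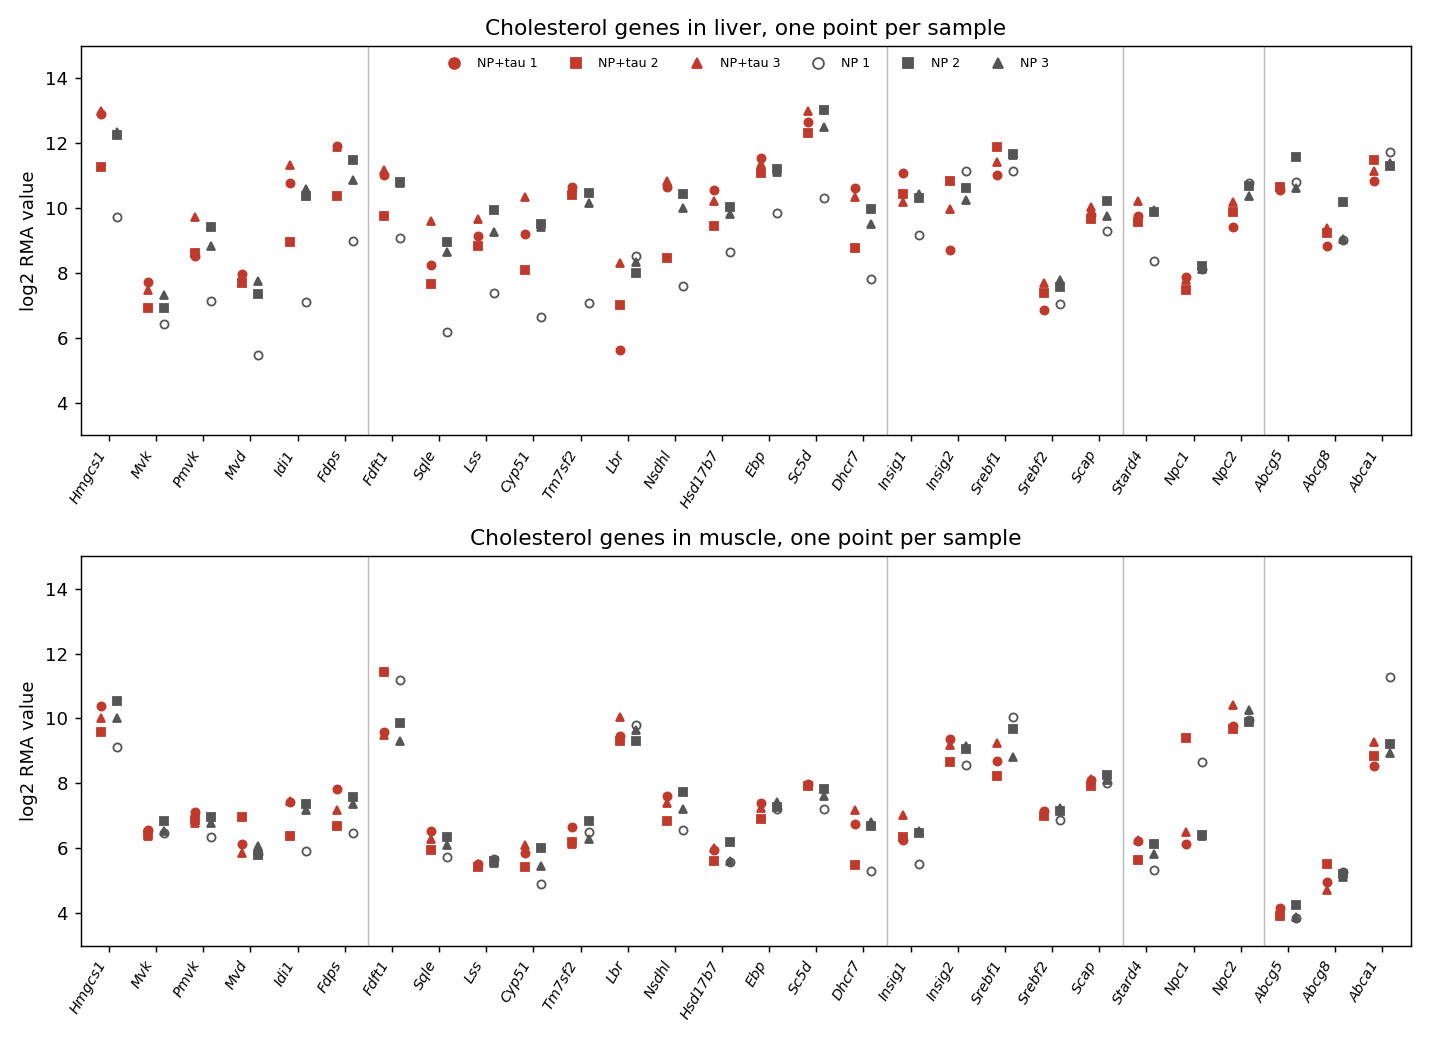
Log2 RMA value (vertical axis) of the 28 measured members in each NP+tau (red) and NP (grey) liver and muscle, with marker shape for the replicate and grey lines between early synthesis, late synthesis, SREBP control, transport and export. In liver the open circle of NP replicate 1 is the lowest point for 16 of the 17 synthesis enzymes, and in muscle for 10 of them.

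The enzymes that lead to farnesyl diphosphate were lowest in the liver of NP replicate 1 for all 6 measured. Values are given in the order of replicates 1, 2 and 3. Hmgcs1, the cytosolic synthase that makes HMG-CoA, was at 12.90, 11.28 and 12.99 in NP+tau livers and at 9.72, 12.25 and 12.34 in NP livers. Idi1, the isomerase of isopentenyl diphosphate, was at 10.79, 8.96 and 11.33 in NP+tau livers and at 7.11, 10.38 and 10.58 in NP livers, which was the widest range of any member, 18.7-fold between the lowest and highest liver. For both genes NP replicate 1 was lowest and NP+tau replicate 2 the next, and the diet groups overlapped.
The group means of Hmgcs1 were 12.39 ± 0.97 in NP+tau and 11.44 ± 1.49 in NP (SD, n = 3 each), a difference of 0.95 (limma standard error 0.79, adjusted p = 0.718) that was 0.09 without NP replicate 1. Idi1 differed by 1.01 (standard error 1.02, adjusted p = 0.731), and by -0.11 without that liver. Mvk, mevalonate kinase, was at 7.74, 6.92 and 7.48 in NP+tau livers and at 6.43, 6.91 and 7.33 in NP livers, with a difference of 0.49 (standard error 0.31, adjusted p = 0.718) that was 0.26 without NP replicate 1.
Mvd, the decarboxylase that yields isopentenyl diphosphate, was at 7.98, 7.69 and 7.91 in NP+tau livers, which lay close together. In NP livers it was at 5.48, 7.37 and 7.76, and the difference of 0.99 (standard error 0.56, adjusted p = 0.718) was 0.30 without NP replicate 1. Pmvk and Fdps had differences of 0.50 and 0.94.

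The late enzymes, from squalene onwards, showed the same lowest sample for 10 of the 11. Sqle, the squalene epoxidase and a rate-limiting step, was at 8.25, 7.67 and 9.62 in NP+tau livers and at 6.18, 8.96 and 8.64 in NP livers. Cyp51, the lanosterol demethylase, was at 9.19, 8.10 and 10.35 in NP+tau livers and at 6.64, 9.52 and 9.42 in NP livers, a 13.1-fold range. Nsdhl, a dehydrogenase that acts in the removal of methyl groups from the sterol ring, was at 10.66, 8.47 and 10.85 in NP+tau livers and at 7.61, 10.45 and 10.01 in NP livers.
Each of these genes had NP replicate 1 lowest and NP+tau replicate 2 next. Their differences were 0.59 (standard error 0.81), 0.69 (standard error 0.88) and 0.64 (standard error 0.90), with adjusted p of 0.781, 0.765 and 0.784 from limma. Without NP replicate 1 they turned to -0.29, -0.26 and -0.24. Ebp, the sterol isomerase, was at 11.54, 11.08 and 11.37 in NP+tau livers and at 9.86, 11.21 and 11.11 in NP livers, a difference of 0.60 (standard error 0.38, adjusted p = 0.718) that was 0.17 without NP replicate 1.

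Tm7sf2 and Lbr, both reductases for the sterol made by Cyp51, went opposite ways. Lbr is also a protein of the inner nuclear membrane that binds lamins. Tm7sf2 was at 10.66, 10.40 and 10.63 in NP+tau livers and at 7.09, 10.48 and 10.15 in NP livers. A single liver, NP replicate 1, was thus low, and the other 5 spanned only 0.51. Lbr was at 5.64, 7.03 and 8.31 in NP+tau livers and at 8.54, 7.99 and 8.33 in NP livers, so that NP replicate 1 was its highest sample and the outlying NP+tau replicate 1 its lowest.
The difference was 1.33 for Tm7sf2 (standard error 0.84, adjusted p = 0.718) and -1.29 for Lbr (standard error 0.62, adjusted p = 0.718). Without NP replicate 1 it was 0.25 for Tm7sf2 and -1.16 for Lbr, and without NP+tau replicate 1 Lbr differed by -0.61. In muscle the pair showed narrow ranges of 0.71 and 0.74, with differences of -0.22 and 0.02.

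Over the 17 synthesis enzymes in liver, 16 had their lowest value in NP replicate 1, the exception being Lbr, whereas 19.8% of all 14202 genes kept had their lowest value there. Of all members it was 19 of 28, and 22 of 28 when the outlying NP+tau replicate 1 was left out, against 27.9% of genes. The pair of lowest values fell on NP replicate 1 and NP+tau replicate 2 for 12 of the 17 enzymes and 14 of the 28 members, against 4.44% of genes. These patterns were picked after the values were seen and carry no test.
The median deviation of the 17 enzymes from their own median was 0.26, -0.78 and 0.45 in NP+tau livers and -2.20, 0.11 and 0.04 in NP livers. Over all genes kept it was between -0.09 and 0.01 in each liver. The other probe sets of these genes gave the same lowest liver, NP replicate 1 being lowest for 33 of the 35 kept probe sets of the 17 enzymes. The median range of the enzymes over the 6 livers was 2.82, against 0.90 for all genes kept, and 1.42 against 0.75 without NP replicate 1.

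**Figure D2:**
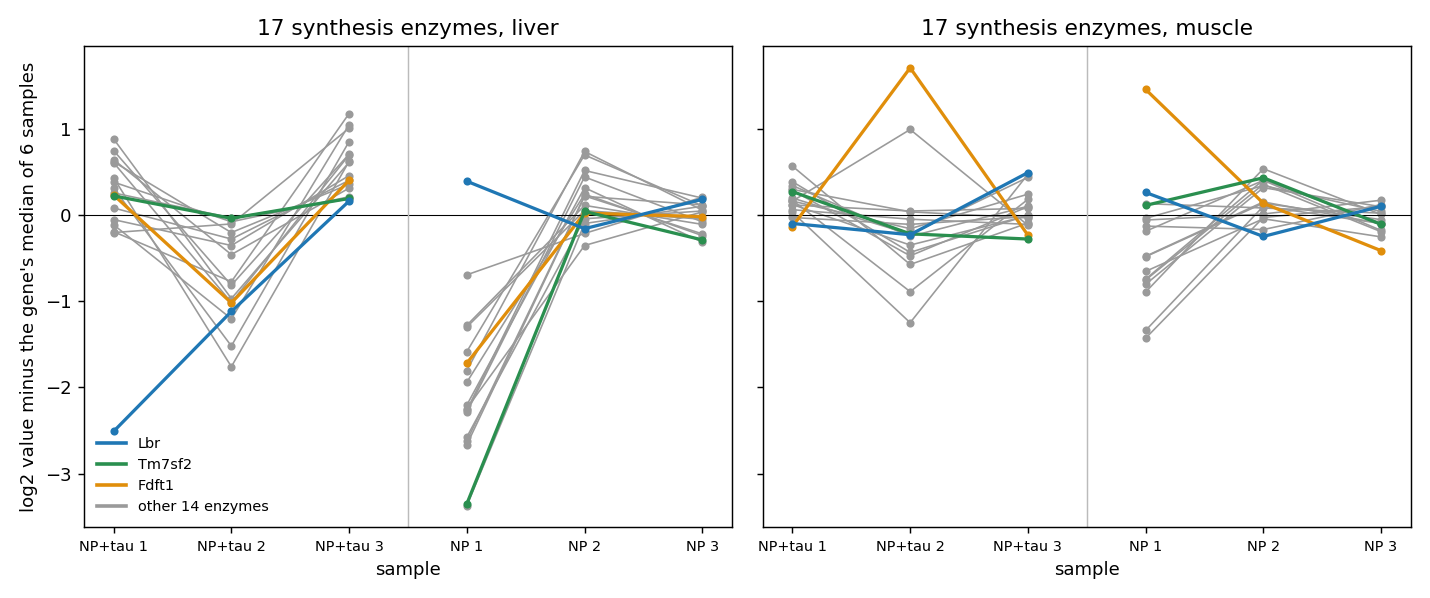
Log2 value of each of the 17 synthesis enzymes minus its own median over the 6 samples (vertical axis) in each NP+tau and NP sample (horizontal axis) of liver (left) and muscle (right), where lines join the values of 1 gene within a diet group. Liver NP replicate 1 lies at a median of -2.20 and NP+tau replicate 2 at -0.78, Lbr runs the other way in NP replicate 1, and Fdft1 is high in muscle NP+tau replicate 2 and NP replicate 1.

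The signs of the group differences in liver depended on this sample. With all 6 livers the difference was above 0 for 16 and below 0 for 1 of the 17 enzymes, with a median of 0.64, and the median over all 28 members was 0.49 (19 above and 9 below 0), against -0.04 for all genes kept. Without NP replicate 1 it was above 0 for 8 and below 0 for 9 enzymes, with a median of -0.11, and over all members the median was -0.16, with 9 above and 19 below 0. Without NP+tau replicate 1 the median of the members was 0.34. Without both NP replicate 1 and NP+tau replicate 2, which was tried after seeing the data, it was 0.10. Hmgcs1, Idi1, Sqle, Cyp51 and Nsdhl were then still above 0.

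**Figure D3:**
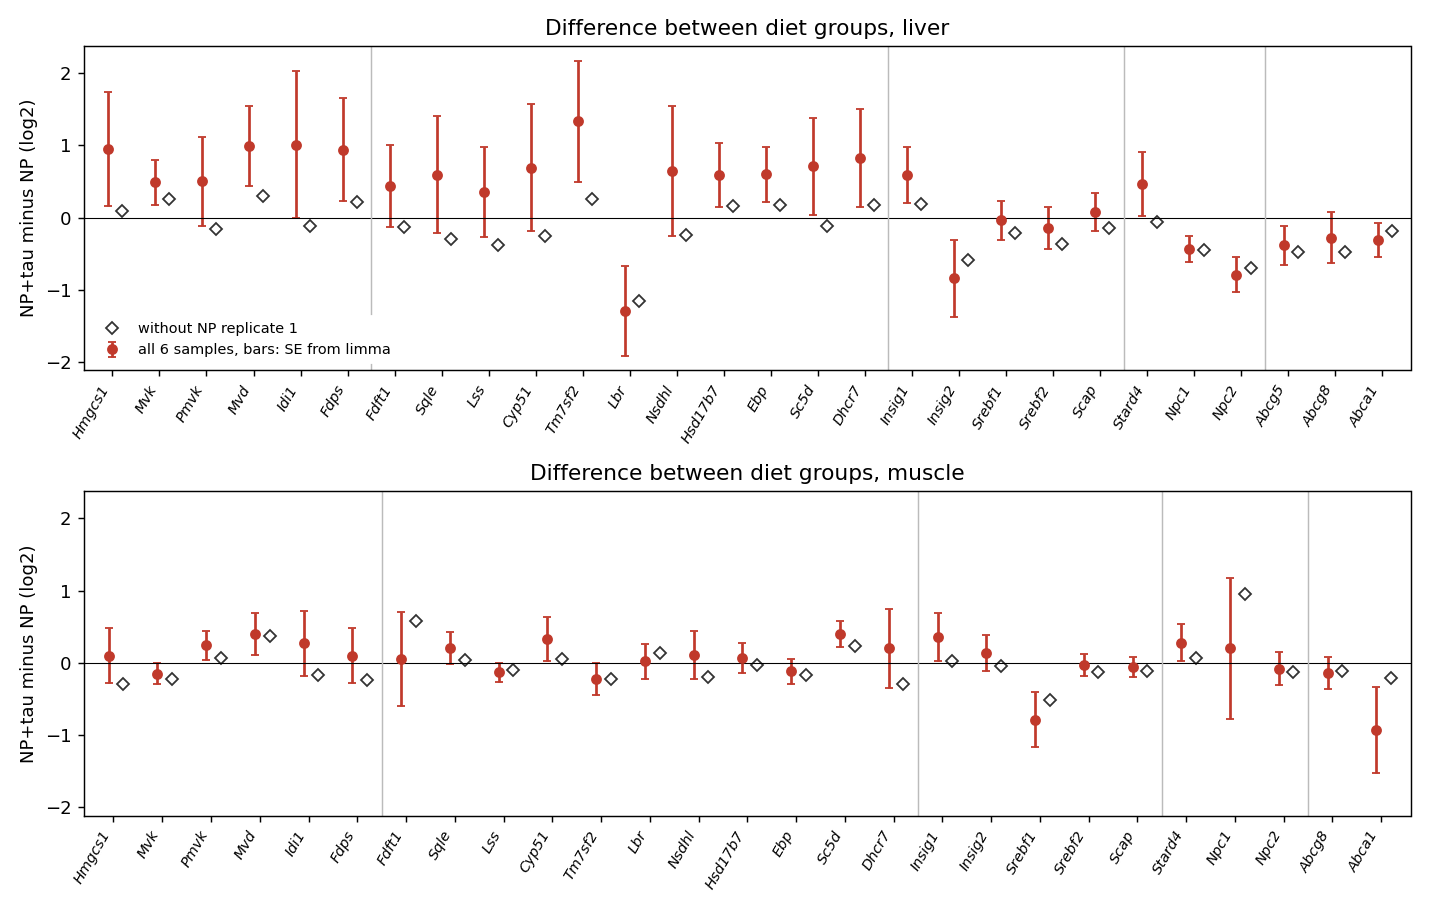
NP+tau minus NP difference in log2 units (vertical axis) for each member that passed the filter on dim values in liver (top) and muscle (bottom), with all 6 samples (red, bars for the standard error from limma) and without NP replicate 1 (open diamonds). The liver synthesis enzymes other than Lbr lie between 0.35 and 1.33 with all samples and scatter around 0 without NP replicate 1.

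The controllers of the pathway varied less than the enzymes, with the exception of the Insig genes. Insig1, itself a gene that SREBP switches on, was at 11.08, 10.43 and 10.20 in NP+tau livers and at 9.17, 10.32 and 10.43 in NP livers, lowest in NP replicate 1 as the enzymes were. Insig2, which in liver is known to be lowered by insulin, was at 8.71, 10.83 and 9.97 in NP+tau livers and at 11.16, 10.62 and 10.24 in NP livers, where its highest values were in NP replicate 1 and NP+tau replicate 2. The highest and lowest livers of Insig1, NP+tau replicate 1 and NP replicate 1, were the lowest and highest of Insig2. NP+tau replicate 1, the array unlike the rest, was however the lowest liver for 5870 of the 14202 genes kept. The differences were 0.59 for Insig1 and -0.84 for Insig2 (limma adjusted p = 0.718 for both).
The transcripts of the transcription factors did not share the spread of the enzymes. Srebf1, Srebf2 and Scap had ranges of 0.86, 0.94 and 0.90 over the 6 livers, against a median of 0.90 for all genes kept, and differences of -0.04, -0.15 and 0.08. Srebf1 was at 11.03, 11.89 and 11.42 in NP+tau livers and at 11.14, 11.67 and 11.65 in NP livers. Srebf2 was at 6.85, 7.39 and 7.71 in NP+tau livers and at 7.05, 7.56 and 7.78 in NP livers. RNA levels do not show how much of these proteins was cut and active.

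Npc1 and Npc2, which hand cholesterol out of lysosomes, were the members whose liver values did not overlap between the diet groups. Npc2, the soluble partner, was at 9.42, 9.89 and 10.18 in NP+tau livers and at 10.78, 10.68 and 10.38 in NP livers. Npc1, the membrane partner, was at 7.87, 7.48 and 7.79 in NP+tau livers and at 8.12, 8.21 and 8.12 in NP livers. Each NP+tau liver was below each NP liver for both genes, which 9.22% of all genes kept showed in this direction and 5.95% in the other, so 2 of 28 members is a share near the background.
Npc2 averaged 9.83 ± 0.39 in NP+tau and 10.61 ± 0.21 in NP livers (SD, n = 3 each), a difference of -0.79 (standard error 0.24, adjusted p = 0.718). For Npc1 the means were 7.71 ± 0.20 in NP+tau and 8.15 ± 0.05 in NP livers (SD, n = 3 each), a difference of -0.44 (standard error 0.18, adjusted p = 0.718). An exact permutation test of 3 against 3 samples cannot go below p = 0.1 (two-sided), which both reached. The second kept probe set of Npc2 in liver, at 9.43, 9.55 and 10.07 in NP+tau and 10.85, 10.51 and 10.20 in NP, did not overlap either. With any 1 liver left out the Npc2 difference stayed between -0.96 and -0.58 and that of Npc1 between -0.51 and -0.32.
Markers of macrophages, cells rich in lysosomes, were also lower in the NP+tau livers. Their mean level was 8.29, 7.29 and 8.23 in NP+tau livers and 9.54, 8.81 and 9.08 in NP livers. Within NP+tau that mean was lowest in replicate 2, as Npc1 was, whereas Npc2 was lowest in replicate 1. All 8 markers had a lower mean in NP+tau and 7 of the 8 did not overlap, against 9.22% of genes kept. Their part in the Npc1 and Npc2 values was not tested. Stard4, a carrier of sterols in the cytosol, was at 9.77, 9.59 and 10.21 in NP+tau livers and at 8.36, 9.88 and 9.96 in NP livers, with NP replicate 1 and NP+tau replicate 2 lowest like most enzymes.

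The exporters did not share 1 highest liver, but all 3 were lowest in NP+tau replicate 1, the array unlike the rest, as were 5870 of the 14202 genes kept. Abcg5 and Abcg8, which together form the transporter that moves sterols into bile, shared their highest sample, NP replicate 2. Abcg5 was at 10.56, 10.65 and 10.65 in NP+tau livers and at 10.82, 11.57 and 10.61 in NP livers. Abcg8 was at 8.83, 9.24 and 9.38 in NP+tau livers and at 9.03, 10.20 and 9.06 in NP livers. Their differences were -0.38 and -0.28 (adjusted p = 0.718 and 0.761), and the diet groups overlapped. Abca1, which loads cholesterol onto apolipoprotein particles, was at 10.85, 11.49 and 11.14 in NP+tau livers and at 11.72, 11.29 and 11.39 in NP livers. By this probe set, its brightest, it was highest in NP replicate 1, but by another in NP+tau replicate 2.

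In muscle, where 27 members passed the filter, the enzymes varied less than in liver, with a median range of 0.82 against 2.82. For all genes kept it was 0.69 in muscle and 0.90 in liver. Some enzymes were dim in muscle, such as Cyp51 at 4.90 to 6.09 and Lss at 5.43 to 5.67, not far above the filter limit. The part of low signal in the narrower muscle ranges was not tested. Abcg5 was left out of the tests there, at 3.86 to 4.24 and below the limit of 4.49 in each muscle. Idi1 was at 7.44, 6.38 and 7.45 in NP+tau muscles and at 5.93, 7.37 and 7.17 in NP muscles. Dhcr7, which makes cholesterol from its last precursor, was at 6.75, 5.47 and 7.19 in NP+tau muscles and at 5.29, 6.69 and 6.82 in NP muscles. In both, NP replicate 1 was lowest and NP+tau replicate 2 next, as for Idi1 and Dhcr7 in liver.
Idi1 differed by 0.27 (standard error 0.45, adjusted p = 0.848) and Dhcr7 by 0.20 (standard error 0.55, adjusted p = 0.913) between NP+tau and NP muscle, and without NP replicate 1 the differences were -0.17 and -0.29. NP replicate 1 was the lowest muscle for 10 of the 17 enzymes and 14 of 27 members, against 25.3% of genes kept. The pair of lowest values fell on NP replicate 1 and NP+tau replicate 2 for 8 enzymes and 12 members, against 16.5%. NP replicate 1 was lowest in both tissues for 10 of the 17 enzymes and for 12 of 27 members, against 3.79% of the 12814 genes kept in both.
The median deviation of the enzymes in muscle was 0.16, -0.22 and 0.00 in NP+tau and -0.48, 0.14 and -0.06 in NP samples. Insig1 was at 6.26, 6.34 and 7.02 in NP+tau muscles and at 5.53, 6.48 and 6.53 in NP muscles, again lowest in NP replicate 1. Insig2 was at 9.36, 8.65 and 9.19 in NP+tau muscles and at 8.56, 9.07 and 9.14 in NP muscles, so that NP replicate 1 was lowest there and not highest as in liver. Of its other 2 probe sets 1 shared this in muscle, and 1 was at 8.78, 8.49 and 8.50 in NP+tau and 8.59, 8.88 and 8.58 in NP samples, with NP replicate 1 in the middle.

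Fdft1 and Npc1 broke this order in muscle. Fdft1, the squalene synthase that commits carbon to sterols, was at 9.59, 11.43 and 9.49 in NP+tau muscles and at 11.18, 9.86 and 9.31 in NP muscles. Its other bright probe set read 9.25, 11.24 and 9.09 in NP+tau and 10.90, 9.37 and 8.97 in NP muscles. Npc1 was at 6.12, 9.41 and 6.51 in NP+tau muscles and at 8.66, 6.40 and 6.39 in NP muscles, a 9.8-fold range.
Both genes were thus high in NP+tau replicate 2 and NP replicate 1, the muscles with the lowest median deviation of the enzymes. The 2 highest values fell on these muscles for 3 of 27 members, Fdft1, Npc1 and Abcg8. Of all genes kept 12.4% showed this, so the share of members is near the background. In liver Fdft1 was low in the same replicates, and Npc1 was lowest in NP+tau replicate 2 but not low in NP replicate 1. A single probe set measured Npc1. The differences were 0.05 for Fdft1 (standard error 0.65, adjusted p = 0.983) and 0.20 for Npc1 (standard error 0.98, adjusted p = 0.955), and without NP+tau replicate 2 they were -0.58 and -0.83. Npc2 did not follow, at 9.78, 9.67 and 10.41 in NP+tau muscles and 9.94, 9.89 and 10.27 in NP muscles.

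Abca1 and Srebf1, both genes that LXR is known to switch on, were highest in the muscle of NP replicate 1. Of all 13812 genes kept, 2683 were highest in that muscle. Abca1 was at 8.52, 8.83 and 9.28 in NP+tau muscles and at 11.27, 9.22 and 8.95 in NP muscles. Its difference of -0.93 (standard error 0.59, adjusted p = 0.710) was -0.21 without NP replicate 1. A second probe set of Abca1 read 4.95, 4.83 and 4.83 in NP+tau and 7.82, 5.33 and 5.21 in NP muscles.
Srebf1 was at 8.68, 8.23 and 9.25 in NP+tau muscles and at 10.06, 9.66 and 8.82 in NP muscles, a difference of -0.79 (standard error 0.38, adjusted p = 0.707) that was -0.52 without NP replicate 1. Srebf2 was at 7.14, 6.99 and 7.07 in NP+tau muscles and at 6.87, 7.15 and 7.24 in NP muscles, with a difference of -0.03. By the brightest probe set of Abca1, its highest sample in both tissues was thus the one in which most synthesis enzymes were lowest. In liver its range was only 0.88, against a median of 0.90 for all genes kept. Another probe set of Abca1 was highest in NP+tau replicate 2 in liver, at 8.39, against 8.14 in NP replicate 1.

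**Figure D4:**
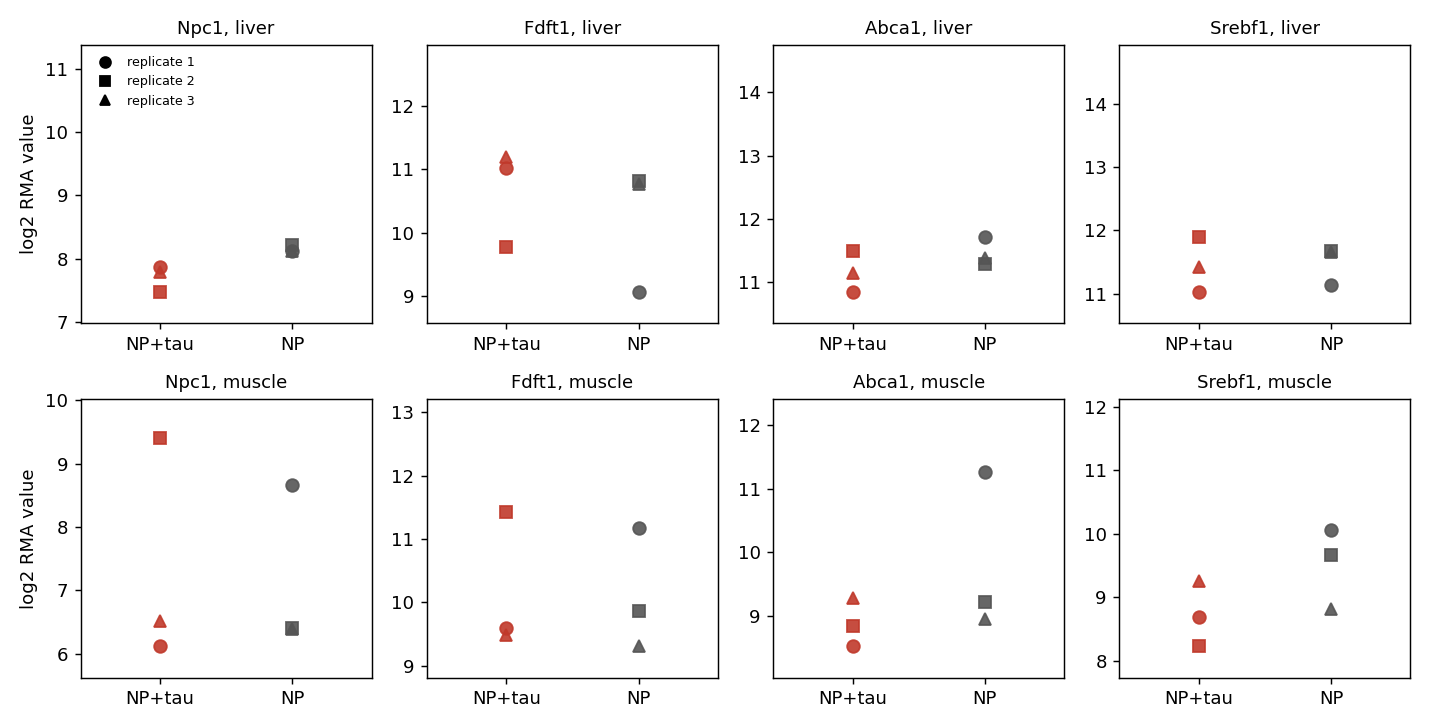
Log2 RMA value (vertical axes, each spanning the same number of log2 units) of Npc1, Fdft1, Abca1 and Srebf1 in each NP+tau (red) and NP (grey) liver (top) and muscle (bottom), with marker shape for the replicate. In muscle, Npc1 and Fdft1 are high in NP+tau replicate 2 and NP replicate 1 only, and Abca1 is high in NP replicate 1, at 11.27 against 8.52 to 9.28 in the other muscles.

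Of the enzymes in muscle, Sc5d and Lss had groups that did not overlap. Sc5d, a sterol desaturase, was at 7.99, 7.92 and 7.95 in NP+tau muscles and at 7.22, 7.83 and 7.62 in NP muscles, a difference of 0.40 (standard error 0.18, adjusted p = 0.707) that was 0.23 without NP replicate 1. Lss, which closes the sterol rings to give lanosterol, was at 5.51, 5.43 and 5.52 in NP+tau muscles and at 5.67, 5.62 and 5.56 in NP muscles, a difference of -0.13 (standard error 0.13, adjusted p = 0.754). With 1 of 27 members above and 1 below, against 8.44% and 7.25% of genes kept, these shares were below the background. A second bright probe set of Sc5d, at 7.16, 6.22 and 7.25 in NP+tau and 5.38, 6.88 and 6.87 in NP muscles, overlapped between the groups.
Pmvk, phosphomevalonate kinase, was at 7.12, 6.86 and 6.79 in NP+tau muscles and at 6.34, 6.96 and 6.77 in NP muscles, a difference of 0.24 (standard error 0.20) that was 0.06 without NP replicate 1. Mvd was at 6.12, 6.95 and 5.84 in NP+tau muscles and at 5.83, 5.79 and 6.08 in NP muscles, a difference of 0.40 (standard error 0.29) that was 0.08 without NP+tau replicate 2. Neither passed limma's test (adjusted p = 0.732 and 0.713). The other enzymes had differences between -0.22 and 0.33.

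Other genes of the same regulation were set beside the members. Of 11 other targets of SREBP, most of them in acetate use or fatty acid synthesis, 10 had their lowest liver value in NP replicate 1, against 19.8% of genes kept. In muscle it was 2 of the 11, against 25.3%. Aacs, the acetoacetyl-CoA synthetase, was at 8.64, 8.66 and 9.17 in NP+tau livers and at 6.21, 7.47 and 7.93 in NP livers. Acss2, the acetyl-CoA synthetase of the cytosol, was at 11.40, 9.50 and 11.02 in NP+tau livers and at 7.57, 10.90 and 9.95 in NP livers. limma called 0 of the 11 in either tissue, and at an unadjusted p under 0.05 there was 1, Aacs, higher in NP+tau liver. In liver, 3 of the 11 did not overlap between the groups, Aacs, Elovl6 and Fasn, all higher in NP+tau, against 5.95% of genes kept in this direction.
Of the 8 measured genes of LXR and lipoprotein cholesterol that were kept in liver, 0 were called, 1 was lower at an unadjusted p under 0.05 (Mylip), and 3 did not overlap between the groups, all lower in NP+tau, against 9.22% of genes kept. Mylip, a ubiquitin ligase that LXR switches on, was at 6.24, 7.19 and 7.52 in NP+tau livers and at 9.45, 7.61 and 8.06 in NP livers. In muscle it was at 7.98, 8.92 and 8.60 in NP+tau and at 10.79, 9.0 and 8.86 in NP samples. Abcg1, a cholesterol exporter, was at 6.49, 7.35 and 7.43 in NP+tau livers and at 8.94, 7.75 and 7.51 in NP livers. Both were thus highest in NP replicate 1, as Abca1 was by its brightest probe set. Of the 8 genes kept in liver 4 were highest there, against 3966 of 14202 genes kept. In muscle it was 2 of 9, against 2683 of 13812. Srebf1, which LXR also switches on, was highest in NP+tau replicate 2 in liver. Of 5 kept genes of SREBP processing and sterol sensing and 6 of the isoprenoid branches, 0 were called in either tissue, and 1 was higher at an unadjusted p under 0.05, Nus1 in NP+tau muscle.

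Some other genes had NP replicate 1 or NP+tau replicate 2 at an extreme. Dbp, an output gene of the circadian clock named after its values were seen, was at 10.73, 8.26 and 10.17 in NP+tau livers and at 7.82, 9.72 and 9.07 in NP livers. In muscle Dbp was at 9.67, 8.38 and 9.88 in NP+tau and at 7.55, 8.86 and 8.66 in NP samples, so that in both tissues the same replicates were lowest as for the enzymes. The other 5 clock genes did not share this in both tissues, and of all 6 NP replicate 1 was lowest for 3 in liver and 1 in muscle. The 7 neutrophil markers averaged 5.68, 5.33 and 5.21 in NP+tau livers and 9.52, 6.74 and 7.01 in NP livers, where S100a8 reached 12.75 in NP replicate 1 and lay between 5.49 and 8.81 elsewhere. In muscle of NP replicate 1 the myoglobin gene Mb was at 11.29, against 13.43 to 13.95 in the other muscles. The muscle markers as a list were mixed, with 3 of the 7 lowest and 2 highest in that muscle. Of the 13812 genes kept, 3492 were lowest and 2683 highest there. The hepatocyte markers of NP replicate 1 averaged 14.18, within the range of the other livers. The part of these measures in the cholesterol gene values was not tested.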

How the data were processed

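RNA from 12 samples of liver and quadriceps muscle was hybridised to Affymetrix mouse arrays. The authors turned the raw array files into log2 expression levels with quantile normalisation and RMA (justRMA in R), liver and muscle apart, and deposited all 45101 probe sets, of which 64 controls were removed here. Probe sets with 1 gene symbol (34958), several (932) or none (9211) were told apart by the platform annotation. The array number, 6 in a tissue, limits the precision.

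Within a tissue, probe sets were used whose highest value reached the 35th percentile of highest values (4.60 in liver and 4.49 in muscle), which left 29274 in each. NP+tau was compared with NP in R 4.3.3 with limma 3.58.1 (lmFit, eBayes), with Benjamini-Hochberg adjustment over all probe sets kept and a threshold of 0.05. Differences are NP+tau minus NP. The tissue difference was tested as an interaction without a block over 25622 probe sets. The limma fit was first run on simulated data with known differences, and the size recovered was checked. The simulated noise was independent between probe sets, unlike these arrays, so it does not show how often real differences would be called here. Block fits used statmod 1.5.0, and data.table (version 1.17.8), pandas 2.3.3 and matplotlib 3.10.9 served for reading and drawing.

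Values in each sample are given for members whose groups did not overlap, for the 6 with the smallest p, for the 6 with the widest range and for their partners in a shared step. Those outside this rule (Insig1, Insig2, Srebf1, Srebf2, Stard4, Abcg5, Abcg8 and Abca1 in liver, and genes that are no members) were chosen after their values were seen. The members, lists and patterns were chosen with earlier results of these data known. Promoters came from a RefSeq table that held 25 of the 31 members. The annotation table and the promoter table are not complete, and protein sequences were not analysed here. The alternatives were no filter, a stricter filter, an intensity trend, array weights, centred arrays, the mean of all probe sets, the Xist level as a covariate, a replicate block, and each sample left out. Fits without NP replicate 1 and NP+tau replicate 2 together were added after seeing the data.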

Additional observations from a re-analysis of the deposited data

How the results depend on the processing

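In liver, 0 members were called under each alternative except the Xist level as a covariate. With that covariate limma called 3 of 28 members, against 9449 of all 29274 probe sets, which is a larger share. The 3 members were all lower in NP+tau (Lbr at -2.96, adjusted p = 0.00926, Insig2 at -2.05, adjusted p = 0.0400, and Npc2 at -1.29, adjusted p = 0.0133). That fit compares in effect NP+tau replicate 1, the array that stood apart, with the NP livers. Array weights called 8 probe sets in liver, the fit without NP replicate 1 and NP+tau replicate 1 together 9, and leaving out 1 liver at a time 0 to 9. In muscle, 0 members were called under each alternative, and leaving out 1 muscle at a time called 0 to 8 probe sets. No alternative run called a probe set or member for the interaction. The median difference of the members ranged over single samples left out from -0.16 to 0.80 in liver and from -0.11 to 0.21 in muscle, lowest in both without NP replicate 1. Without NP replicate 1 and NP+tau replicate 2 together, which was tried after seeing the data, it was 0.10 in liver and 0.03 in muscle. None of the differences below passed limma's test in any fit named with it.

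In liver, single samples left out gave -0.11 to 1.71 for Idi1, -0.29 to 1.10 for Sqle, -0.26 to 1.24 for Cyp51 and -0.24 to 1.40 for Nsdhl. Without NP replicate 1 and NP+tau replicate 1 the signs turned for Hmgcs1 (-0.16), Idi1 (-0.33), Sqle (-0.16), Cyp51 (-0.25) and Nsdhl (-0.57), and with array weights for Nsdhl (-0.17). Without NP replicate 1 and NP+tau replicate 2 together the signs of these genes in liver did not turn. Hmgcs1 was then at 0.65, Idi1 at 0.58, Sqle at 0.13, Cyp51 at 0.30 and Nsdhl at 0.53. In muscle, single samples left out gave -0.17 to 0.63 for Idi1, -0.58 to 0.58 for Fdft1, -0.29 to 0.70 for Dhcr7, -0.04 to 0.35 for Insig2, -0.13 to 0.05 for Srebf2, -0.83 to 0.95 for Npc1 and -0.30 to 0.06 for Npc2. Without NP replicate 1 and NP+tau replicate 2, Fdft1 was at -0.04, Npc1 at -0.08 and Npc2 at 0.02. With the Xist level, Fdft1 was at -0.50, Srebf2 at 0.05 and Npc1 at -0.96. Fdft1 was at -0.00 with array weights and with centred arrays, and with the mean of all probe sets it was at -0.11 and Srebf2 at 0.06. The cause of these turns was not tested. Filters and the intensity trend turned no sign.

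The replicate number as a block called 0 probe sets in liver, in muscle and for the interaction and left the medians of the members at 0.49 and 0.10. Deviations of same-numbered NP+tau and NP samples correlated at 0.0157, -0.114 and 0.112 in liver and at -0.214, -0.271 and 0.334 in muscle for numbers 1, 2 and 3. These were taken across probe sets, which are not independent, and from group means of only 3 samples. They cannot decide whether same-numbered samples are linked, and the labels give no link other than the number. The highest values in muscle were between samples of different number, 0.399 for NP+tau replicate 1 with NP replicate 2 and 0.394 for NP+tau replicate 2 with NP replicate 1. These last are the muscles in which several enzymes were low. Among dim members, Abcg5 lay below the filter limit in each muscle and gave no test there.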

Other observations

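Genes beside the cholesterol branch were also measured. Nus1, a subunit of the enzyme that makes the long isoprenoid chains of dolichol, was at 9.04, 9.22 and 9.12 in NP+tau muscles and at 8.34, 8.26 and 8.90 in NP muscles, so that the groups did not overlap (difference 0.63, standard error 0.20, adjusted p = 0.707 from limma). Pdss2, which makes the side chain of coenzyme Q, was at 8.78, 7.71 and 8.62 in NP+tau muscles and at 6.94, 8.42 and 8.05 in NP muscles, with NP replicate 1 lowest and NP+tau replicate 2 next, an order that not all enzymes showed in muscle. All 6 genes of the isoprenoid branches had a higher mean in NP+tau muscle, with a median difference of 0.16, where 7542 of 13812 genes kept were above 0. In liver 3 of the 6 were above and 3 below 0, with a median of 0.04.

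Elovl6, a fatty acid elongase, was at 6.77, 5.57 and 6.76 in NP+tau muscles and at 4.92, 6.93 and 6.23 in NP muscles, with NP replicate 1 lowest and NP+tau replicate 2 next. It was 1 of only 2 among the 11 other SREBP targets with their lowest muscle value in NP replicate 1, and Acss2 was highest there, at 8.78. Scd1, a fatty acid desaturase, was lowest in NP+tau replicate 2 and between 11.78 and 13.01 in the other muscles. Arntl, a core clock gene that runs opposite to Dbp over the day, was at 6.45, 8.92 and 6.47 in NP+tau muscles. In NP muscles it was at 7.03, 7.02 and 6.83, so that it was high in NP+tau replicate 2 but not set apart in NP replicate 1. In liver Arntl was at 5.46, 6.23 and 4.82 in NP+tau and at 6.21, 5.46 and 5.91 in NP samples. Its highest livers were thus NP+tau replicate 2 and NP replicate 1, the livers in which Dbp was lowest. Of the genes that respond to fasting, Pdk4, a kinase that holds back glucose oxidation, was at 6.17, 8.39 and 7.88 in NP+tau livers. In NP livers it was at 8.27, 9.18 and 8.43, with NP replicate 1 within the range of the others. Of the 4 listed genes measured in liver, 3 had a lower and 1 a higher mean in NP+tau, with a median difference of -1.11. Igfbp1 differed by -1.53 (limma adjusted p = 0.718). NP replicate 1 was the lowest liver for 1 of the 4, Cyp4a14, at 12.74. The time of day and the feeding state at death were not given in the sources used here.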
